A study of Arabidopsis thaliana with 8 samples.

Results

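Cytosolic ribosomal proteins are the protein subunits of the ribosomes that translate nuclear messages in the cytoplasm, as opposed to those of plastids and mitochondria. A cytosolic ribosome joins a small 40S subunit, which reads the message, to a large 60S subunit, which forms the peptide bond. In Arabidopsis thaliana each ribosomal protein is encoded by a small family of genes that are expressed side by side, so that the response of one protein is spread over several loci. Ribosomal protein genes are among the most strongly expressed genes of growing tissue. Ribosome assembly is known as a cold-sensitive process in Escherichia coli and in yeast.

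The genes described here were 60 listed loci for such proteins, 44 of the 60S and 16 of the 40S subunit. A locus was taken as measured where the array held a probe set paired with it and with no other gene. That held for 38 loci, 28 of the 60S and 10 of the 40S subunit, among 13513 probe sets paired with 1 gene in the series. Of the other 22 loci, 10 were found only on 8 probe sets shared by several genes, and 12 had no probe set in the annotation used. The annotation gives locus codes in place of names for the 38 genes, so that the codes are used here. Protein family names (RPL for large-subunit and RPS for small-subunit proteins) follow the published Arabidopsis nomenclature as background and were not taken from the files.

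Transcripts were measured on Affymetrix ATH1 arrays in 8 samples, with 2 arrays in each of 4 groups: warm and cold wild type (Col-0), and warm and cold sfr3, a mutant line made from Col-0 with ethyl methanesulfonate. The sfr3-1 mutation, which impairs survival of freezing, is known to lie in ACC1, a gene for acetyl-CoA carboxylase. All plants were 38 days old, raised at 20 °C and 70% humidity under 8 h of light and 16 h of darkness after 48 h of seed treatment at 4 °C. How cold the exposure was, and how long it lasted, is not given in the sources used. The labels call the tissue the rosette in wild type and the aerial parts in sfr3, so that genotype and the part collected cannot be told apart. The mutant is represented by 1 line. The comparison of temperatures bears on cold acclimation, and that of genotypes on whether sfr3 acclimates differently. A change in the number of cells of a type and a change in RNA per cell cannot be told apart in such whole tissue.

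Signals are MAS5 values, scaled so that the trimmed mean of every array is 100. One array stood apart from the other 7: cold sfr3 replicate 1. Its median signal was 52.5 against 36.6 to 39.0 on the others, and the 95th percentile of its bacterial control probe sets was 35.4 against 6.37 to 11.3. Its hybridisation controls gave a median of 5.75 times their median signal on the other arrays, against 0.542 to 1.18 times for each of those arrays. The medians that rest on it, and the main counts of the listed genes, are therefore given with and without it. Without it the group holds 1 array, whose spread is assumed to be that of the other groups. Of 4 photosynthesis genes used as markers of green tissue, the summed signal was 19019.5 and 24888 in warm and 16733 and 17372 in cold wild type, and 19994 and 21389 in warm and 18892 and 21427 in cold sfr3. Both cold wild-type sums lay below the warm ones, and the sfr3 sums overlapped. In cold sfr3 LHCB4.2 was called lower, at -0.915 with an adjusted p of 0.0384, and the other 3 genes were not called. The sfr3 differences of the 4 genes ran from -0.915 to 0.261, and RCA was higher on both cold arrays than on both warm ones. Of 5 root markers the summed signal was 39.0 to 215, of which PYK10 gave most, and the other 4 stayed between 0.66 and 11.9. PYK10 was lower in the cold in both genotypes, and the part of the markers in the results below was not tested.

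All 38 genes together lay at a median percentile of 97.6 among the signals of the arrays, and all 38 were among the 13648 probe sets tested. Member signals ran from 11.6 to 5212, and 303 of the 304 single values lay over the control background of their array. The exception was AT1G15250 (RPL37 family) on cold sfr3 replicate 1. The median signal of the 38 genes was 791 and 802 on the warm wild-type arrays and 1366 and 1578 on the cold ones. In sfr3 it was 982 and 785 in the warm, and 837 and 1614 in the cold. The cold wild-type arrays thus both lay above the warm ones, whereas in sfr3 only cold replicate 2 did. Summed, the 38 genes gave 0.878% and 0.926% of the array's total signal in warm wild type, and 1.47% and 1.61% in the cold. The share was 1.05% and 0.886% in warm sfr3, and 1.13% and 1.57% in cold sfr3. By this measure all 4 cold arrays lay above all 4 warm ones.

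**Figure D1:**
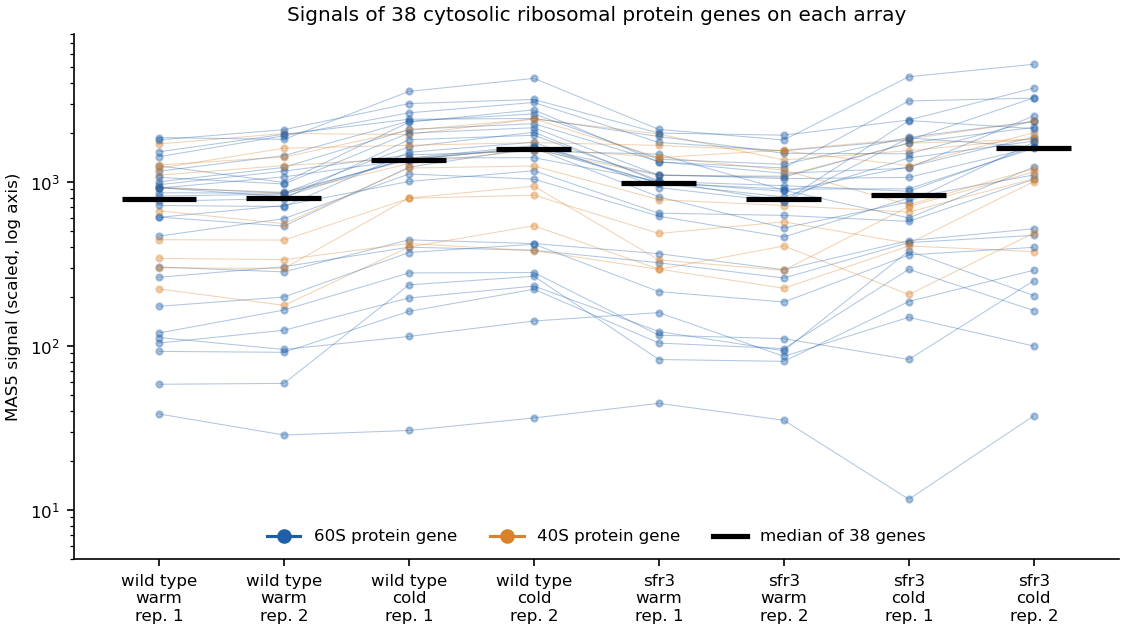
MAS5 signal (log axis) of the 38 genes on each of the 8 arrays. Each thin line joins the values of 1 gene, in blue for 60S and orange for 40S proteins, and the black bars mark the median of the 38 genes, which lay between 785 and 982 on the warm arrays and at 837 on cold sfr3 replicate 1, against 1366 to 1614 on the other cold arrays.

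In the cold, wild-type ribosomal protein genes either rose or did not pass the test, and none fell. Of the 38 genes, 19 were higher at an adjusted p under 0.05 (limma, Benjamini-Hochberg over all probe sets tested), and 0 were lower, where 13.0% of all probe sets tested were called higher and 13.3% lower. The median difference was 0.87 on the log2 scale, a 1.83-fold level, with quartiles of 0.57 and 1.06. The median over all probe sets tested was -0.0041. All 38 differences were positive, from 0.005 to 2.05, and 14 genes reached 2-fold. In 36 genes both cold arrays lay above both warm ones, which was so for 36.8% of the probe sets tested. The remaining 2, AT1G15250 and AT1G15930, are named here after their values were seen. Both subunits took part: 14 of 28 genes for 60S proteins (median 0.91) and 5 of 10 for 40S proteins (median 0.71) were called. Among the 506 probe sets at least as bright as the median member, the median difference was 0.16 and 26.5% were called higher.

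The gene with the largest rise was AT1G07070 of the RPL35a family, which belongs to the 60S subunit. Its signal was 58.4 and 59.1 in warm wild type, and 236 and 266 in the cold. The groups did not overlap, and the difference was 2.05 ± 0.24 (log2, SE), or 4.14-fold, with an adjusted p of 0.000388. AT2G32060 encodes a 40S protein of the RPS12 family. It gave 299.6 and 297 in the warm against 797 and 942 in the cold, a 2.89-fold rise with a log2 difference of 1.53 ± 0.24 and an adjusted p of 0.00163. The cold values were again all above the warm ones.

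AT3G07110 (RPL13a family, 60S) was measured with less scatter, with 762 and 792 in warm and 1807 and 1924 in cold wild type. Its difference was 1.26 ± 0.20, with an adjusted p of 0.00164. The replicates lay close together in both groups. AT1G18540 (RPL6 family, 60S) was more scattered, at 610.2 and 538 in the warm and 1229 and 1609 in the cold. Its difference of 1.29 ± 0.37 had an adjusted p of 0.0295, and the call was lost in 6 of the other settings, with adjusted p from 0.0688 to 0.195. AT2G21580 (RPS25 family, a 40S protein needed in yeast and human cells for some internal starts of translation) gave 222 and 177 in the warm and 401 and 539.9 in the cold. Its difference was 1.22 ± 0.22 with an adjusted p of 0.00387, which became 0.0578 without cold replicate 2.

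The other 14 genes called in wild type rose by 0.68 to 1.19 on the log2 scale. They included the stalk proteins that hold translation factors on the 60S subunit: AT3G09200 and AT3G11250 of the RPP0 family, at 1.08 and 1.03, and AT2G27710 of the RPP2 family, at 1.08. AT3G09630, of the RPL4 family that lines the tunnel through which the new peptide leaves, rose by 1.02, from 1065 and 971 to 1983 and 2139. At the lower end stood 2 genes for 40S proteins, AT2G41840 (RPS2 family) at 0.74 and AT2G36160 (RPS14 family) at 0.68. The 19 genes not called had differences from 0.005 to 0.98. The highest of them was AT3G16780 (RPL19 family), at 119.9 and 166 in the warm and 279 and 280.2 in the cold, with a difference of 0.98 ± 0.42 and an adjusted p of 0.124. The lowest was AT1G15250, whose 38.5 and 28.6 in the warm overlapped 30.5 and 36.4 in the cold. Without cold sfr3 replicate 1, which leaves the wild-type differences as they are and lowers the shared estimate of the spread, 31 genes were called, against 22.2% of probe sets called higher. Leaving out 1 wild-type array left 10, 11, 11 and 6 genes called, for warm replicates 1 and 2 and cold replicates 1 and 2. The share of all probe sets called higher was then 5.94%, 6.86%, 5.58% and 4.63%.

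**Figure D2:**
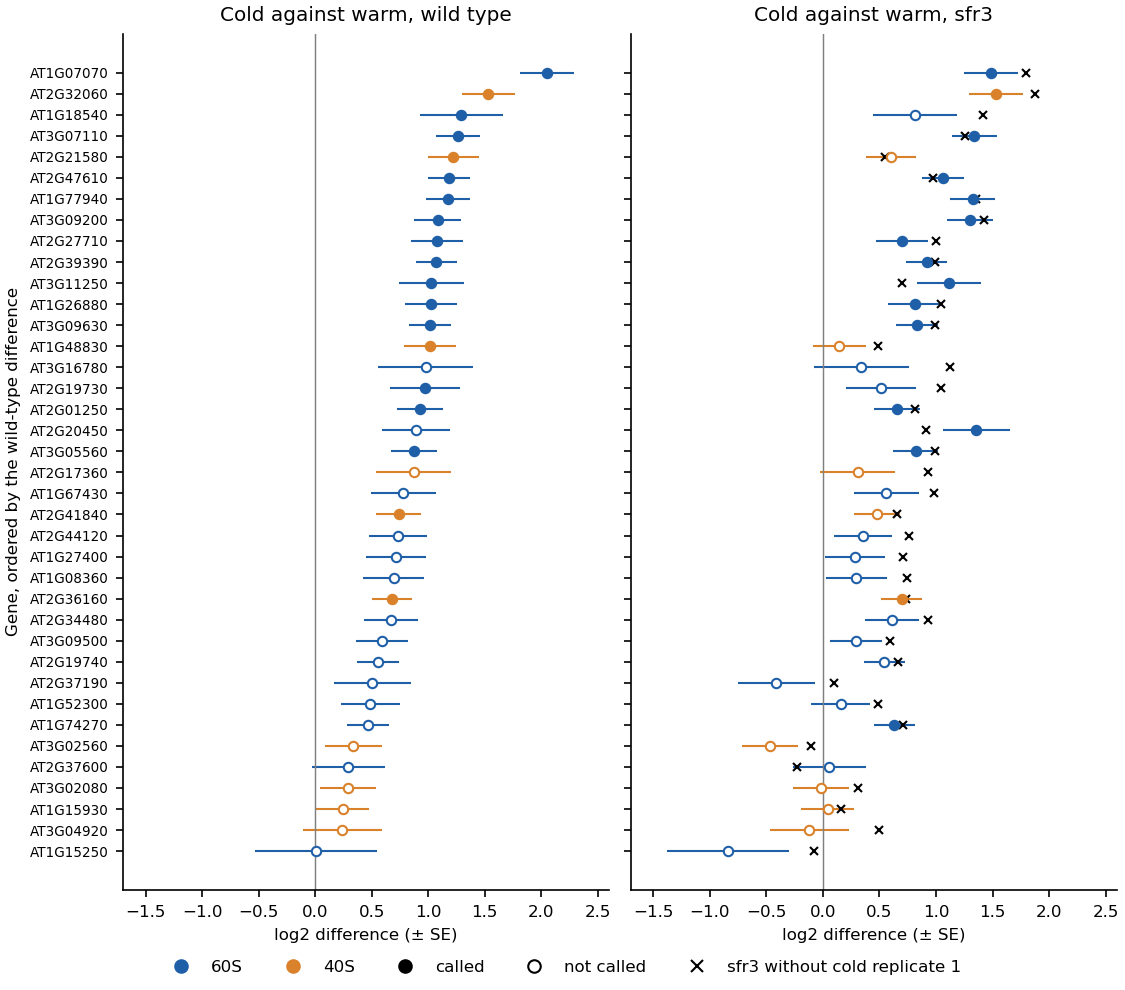
Log2 difference (± SE) between cold and warm for each of the 38 genes, in wild type (left) and sfr3 (right), in the order of the wild-type difference. Filled points passed the test (19 in wild type, 16 in sfr3), colours give the subunit, and crosses give the sfr3 difference without cold replicate 1; all wild-type points lie right of 0, and 5 sfr3 points lie left of it.

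In sfr3 the ribosomal protein genes likewise either rose in the cold or did not pass the test, with more scatter between the cold arrays. Of the 38 genes, 16 were called higher and 0 lower, where 14.9% of all probe sets tested were called higher and 16.4% lower. The median difference was 0.58 on the log2 scale, against 0.06 over all probe sets tested. Among the 506 probe sets at least as bright as the median member, the median was 0.33 and 29.6% were called higher. The values ran from -0.84 to 1.53, with 33 positive and 5 negative, and 8 genes reached 2-fold. Both cold arrays lay above both warm ones in 21 genes, against 33.3% of probe sets tested, and below them in 0, against 30.3%. By subunit, 14 of 28 genes for 60S proteins (median 0.64) and 2 of 10 for 40S proteins (median 0.23) were called. The difference between subunits was not tested.

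The cold sfr3 arrays differed from each other more than any other pair of replicates. Of the 38 genes, 32 were lower on replicate 1 than on replicate 2. The median of replicate 1 minus replicate 2 was -0.60 on the log2 scale over all 38 genes, and 0.002 over all probe sets tested. The median absolute difference between replicates was 0.64 for the 38 genes in cold sfr3 and 0.19 to 0.21 in the other groups. Against both warm arrays, replicate 1 alone was higher in 21 genes and lower in 11, where 48.1% and 43.1% of the probe sets tested were. Replicate 2 alone was higher in 33 genes and lower in 0, where 44.5% and 41.6% were. Without replicate 1, 28 of the 38 genes were called higher and 0 lower, against 18.6% and 19.7% of probe sets, with a median difference of 0.79. Without replicate 2, 16 were called higher and 4 lower, against 29.7% and 28.7% of probe sets, with a median of 0.32.

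The largest rise in sfr3 was that of AT2G32060 (RPS12 family), from 334 and 289 in the warm to 708 and 1150.4 in the cold. The groups did not overlap, and the difference was 1.53 ± 0.24 with an adjusted p of 0.00166. AT1G07070 (RPL35a family) rose from 82.6 and 80.6 to 187 and 289, by 1.49 ± 0.24 with an adjusted p of 0.00201. These were also the genes with the largest rises in wild type. AT3G07110 (RPL13a family) went from 1021 and 761 to 2366 and 2111, a difference of 1.34 ± 0.20 with an adjusted p of 0.00122. AT1G77940, of the RPL30 family of 60S proteins, went from 1321 and 1217 to 3115 and 3242, by 1.32 ± 0.20 with an adjusted p of 0.00139. The cold replicates of AT3G07110 and AT1G77940 lay closer together than those of AT2G32060 and AT1G07070. Without cold replicate 1 the differences were 1.88 for AT2G32060, 1.80 for AT1G07070, 1.26 for AT3G07110 and 1.35 for AT1G77940. AT2G20450 (RPL14 family, 60S) was higher on cold replicate 1 than on replicate 2. It gave 122 and 93.5 in the warm and 379.7 and 203 in the cold, with a difference of 1.36 ± 0.30 and an adjusted p of 0.00896. Its difference was 0.91 without cold replicate 1, and the call was lost without warm replicate 2, at an adjusted p of 0.076.

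The genes with negative differences in sfr3 had differences from 0.005 to 0.50 in wild type. The 5 negative differences were those of AT1G15250 (RPL37 family), AT3G02560 (RPS7 family), AT2G37190 (RPL12 family), AT3G04920 (RPS24 family) and AT3G02080 (RPS19 family), at -0.84, -0.47, -0.41, -0.12 and -0.02, and their 95% intervals all included 0. AT2G37190 was scattered at both temperatures, with 1477 and 889.9 in the warm against 603 and 1229 in the cold, and was lowest on cold replicate 1. AT3G02560 was likewise lowest on cold replicate 1, with 1419.5 and 1179 in the warm and 725 and 1205 in the cold. Without cold replicate 1 these differences became 0.10 for AT2G37190, -0.10 for AT3G02560, 0.50 for AT3G04920, 0.31 for AT3G02080 and -0.08 for AT1G15250.

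**Figure D3:**
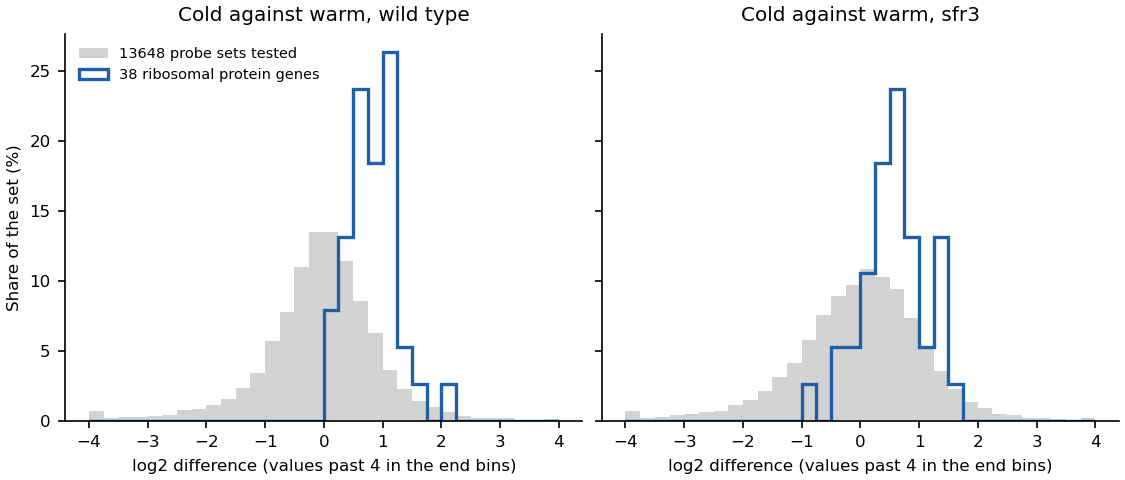
Share (%) of probe sets by log2 difference between cold and warm, in bins of width 0.25, for the 38 ribosomal protein genes (blue outline) and all 13648 probe sets tested (grey), in wild type (left) and sfr3 (right). The grey distributions centre near 0, with medians of -0.0041 and 0.06, and the blue ones lie to the right, with medians of 0.87 and 0.58.

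Both genotypes' cold comparisons rest on separate samples, although the spread was estimated over all 8 arrays. Called higher in both were 14 genes, in wild type alone 5, in sfr3 alone 2 and in neither 17. The share of all probe sets called in both was not determined, so the overlap is not shown to be particular to these genes. A gene that passed in 1 genotype is not thereby shown to differ between them. Across the 38 genes the differences in the 2 genotypes were correlated, with Pearson's r of 0.821 and Spearman's rho of 0.815, and 0.857 and 0.798 without cold sfr3 replicate 1. This is a description across genes measured on the same arrays, and genes are not replicates. The difference averaged over genotypes was not related to the mean log2 signal of the gene (r of 0.064, n = 38).

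Averaged over the genotypes, 25 of the 38 genes were higher in the cold and 0 lower, where 21.0% of all probe sets tested were called higher and 21.8% lower. The median difference was 0.66, or 1.58-fold, against 0.04 over all probe sets tested, and 0.87 against 0.03 without cold sfr3 replicate 1. Among the 506 probe sets at least as bright as the median member, the median was 0.28 and 37.4% were called higher. All 4 cold arrays lay above all 4 warm ones in 20 genes, against 21.3% of probe sets, and in 32 genes when cold sfr3 replicate 1 was left out, against 27.6%. The 5 largest rises were those of AT1G07070 at 1.77 ± 0.17, AT2G32060 at 1.53 ± 0.17, AT3G07110 at 1.30 ± 0.14, AT1G77940 at 1.25 ± 0.14 and AT3G09200 at 1.19 ± 0.15. Their adjusted p values were 5e-05, 0.000107, 8.9e-05, 0.000123 and 0.000208. AT3G09200 (RPP0 family, the base of the 60S stalk) gave 1864 and 1816 in warm and 3560.0 and 4276 in cold wild type. In sfr3 it gave 2089.6 and 1801 in the warm and 4376 and 5212 in the cold, so that every cold value was above every warm one. AT1G77940 gave 1255 and 992 in warm and 2313 and 2748 in cold wild type, with its sfr3 values given above. These 5 genes were called under every setting tried for this comparison, and 16 of the 38 genes were under every setting other than the minimum fold. The share of all probe sets for which that held was not determined.

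Paralogs did not all follow each other. The 38 genes fell into 30 protein families, of which 8 had 2 genes measured. In wild type 1 gene of the pair was called and the other not in 5 of these families, and in sfr3 in 3. The difference between the genes of a pair was not tested, and signals of different probe sets are not compared here as levels. In the RPS12 family AT2G32060 rose in both genotypes as given above, whereas AT1G15930 gave 1704 and 1973 in warm and 1944 and 2420.1 in cold wild type, which overlap. In sfr3 AT1G15930 gave 1959.6 and 1361 in the warm and 1550.3 and 1830.0 in the cold, which also overlap. Its differences of 0.24 ± 0.23 and 0.04 ± 0.23 were called under none of the settings, and the sign in sfr3 was negative under centring and quantile scaling, at -0.20 and -0.06.

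The RPL35a family showed a similar contrast in wild type. AT1G74270 gave 262 and 304 in the warm and 400.0 and 383 in the cold, a difference of 0.47 ± 0.18 with an adjusted p of 0.095, against 2.05 for AT1G07070. In sfr3 both genes were called, AT1G74270 going from 321 and 259.6 to 426 and 472, by 0.63 ± 0.18 with an adjusted p of 0.0296. The cold values lay above the warm ones in both genotypes. In the RPL35 family, whose protein sits at the mouth of the peptide exit tunnel, AT2G39390 was called and AT3G09500 was not. AT2G39390 went from 174 and 199 to 371 and 417 in wild type and from 214 and 185 to 359 and 399 in sfr3, by 1.07 ± 0.18 and 0.92 ± 0.18. The sfr3 call was lost with centring and with array weights, at adjusted p of 0.0992 and 0.0512. AT3G09500 went from 916 and 1073 to 1367 and 1634 in wild type, with an adjusted p of 0.0915, and gave 1107 and 1047 in warm and 1065 and 1625 in cold sfr3. Only in sfr3 did its groups overlap.

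In the RPL7 family AT2G01250 was called in both genotypes, at 0.93 ± 0.20 and 0.66 ± 0.20. Its signals were 1161 and 1447 in warm and 2346 and 2597 in cold wild type, and 1375 and 1279.7 in warm and 1869 and 2335 in cold sfr3. The sfr3 call had an adjusted p of 0.037 and was lost in 11 of the other settings, with adjusted p from 0.054 to 0.35. AT2G44120 was called in neither genotype, at 0.74 ± 0.26 and 0.35 ± 0.26. It gave 919 and 863 in warm and 1365 and 1615 in cold wild type, and 986 and 904 against 907 and 1604 in sfr3. The ranges of difference ± SE of the 2 RPL7 genes overlapped in both genotypes, whatever their calls. In the RPS7 family AT1G48830 was called in wild type, from 667 and 556 to 1215 and 1250.2, with an adjusted p of 0.0116. That call was lost in 4 of the other settings, with adjusted p from 0.0674 to 0.0957. Its sfr3 values of 779 and 717 in the warm and 654 and 1046 in the cold overlapped. AT3G02560 was called in neither genotype, and its wild-type values were 1099 and 1258 in the warm against 1394 and 1584 in the cold.

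In the RPL17 family, whose protein also lines the exit tunnel, only the average over genotypes separated the calls. AT1G67430 gave 1425 and 1909 in warm and 2637 and 3049.6 in cold wild type, and 1739 and 1549 in warm and 1798 and 3254 in cold sfr3. AT1G27400 gave 608 and 718 against 1006 and 1169.9 in wild type, and 645 and 625 against 575 and 1038 in sfr3. Their averaged differences were 0.67 ± 0.20 and 0.50 ± 0.19, with adjusted p of 0.0254 and 0.0571, and their ranges of difference ± SE overlapped. The call of AT1G67430 was lost in 7 of the other settings, with adjusted p from 0.0516 to 0.15. The RPP0 genes were both called in both genotypes. Of the RPL37 genes neither was called in either, AT1G52300 standing at 0.49 ± 0.26 in wild type and 0.16 ± 0.26 in sfr3.

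**Figure D4:**
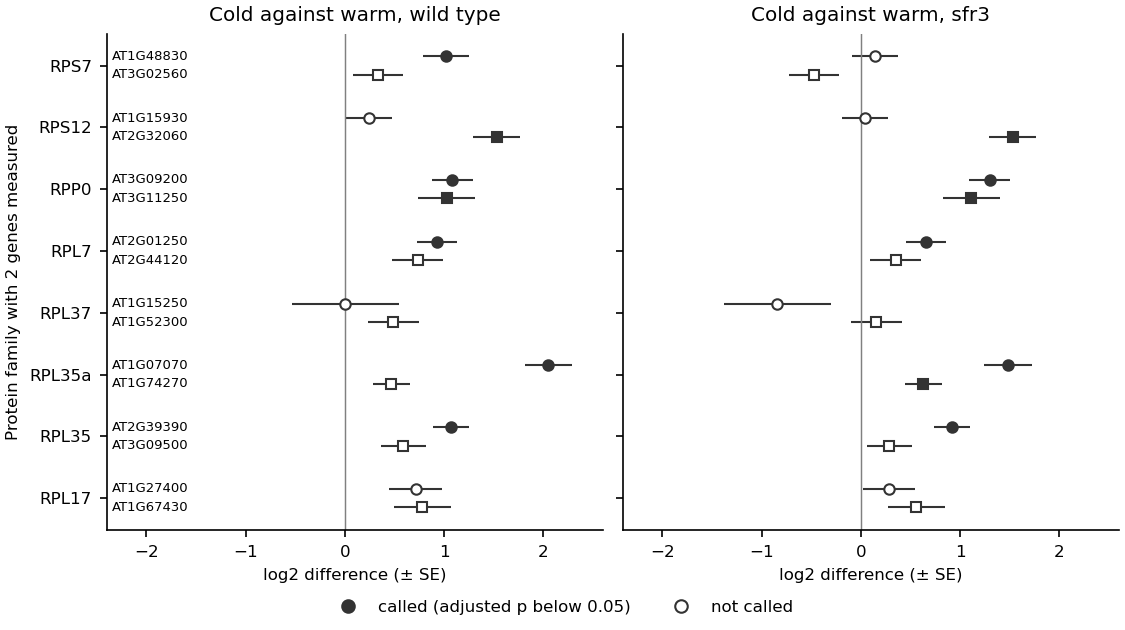
Log2 difference (± SE) between cold and warm for the 8 protein families with 2 genes measured, in wild type (left) and sfr3 (right). Within a family the upper point (circle) and the lower point (square) are the genes listed in that order, filled points passed the test, and the RPS12 genes stand at 0.24 and 1.53 in wild type and 0.04 and 1.53 in sfr3.

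Between the genotypes no ribosomal protein gene passed the test at either temperature. In the warm 0 of the 38 genes were called, where 0.0% of probe sets tested were, and 0 had an unadjusted p under 0.05. The median difference of sfr3 from wild type was 0.12, which was -0.00026 without warm sfr3 replicate 1. Groups did not overlap in 10 genes that were higher in sfr3 and 1 that was lower, where 14.2% and 16.6% of probe sets were. For 33 of the 38 genes the 95% interval lay within a 2-fold change either way. The smallest p belonged to AT1G07070 (RPL35a family), whose 82.6 and 80.6 in warm sfr3 stood above 58.4 and 59.1 in wild type, a difference of 0.46 with a 95% interval from -0.08 to 1.00.

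In the cold 0 of the 38 genes were called, where 0.125% of probe sets tested were, and the smallest adjusted p was 0.369. The median difference of sfr3 from wild type was -0.19. Groups did not overlap in 5 genes that were higher in sfr3 and 7 that were lower, where 20.7% and 21.2% of probe sets were. For 27 of the 38 genes the 95% interval lay within 2-fold. Unadjusted p values under 0.05 were found for 3 genes, all lower in sfr3: AT3G02560 at -0.67 ± 0.25, AT1G48830 at -0.57 ± 0.23 and AT2G37190 at -0.80 ± 0.34. Among all probe sets tested 13.0% had such a p. The direction of the median turned with 1 array, to 0.12 without cold sfr3 replicate 1. Without cold sfr3 replicate 2, 2 genes were called higher and 15 lower, where 18.6% and 20.8% of probe sets were.

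The interaction asked directly whether the cold response differed between the genotypes, using the same samples. It was called for 0 of the 38 genes, where 0.0366% of probe sets tested were called, with a smallest adjusted p of 0.733. The median difference was -0.27, so that the rise was on balance smaller in sfr3, and it was smaller in 31 genes and larger in 7. Unadjusted p values under 0.05 were found for the RPS7 genes AT1G48830 and AT3G02560, at -0.87 ± 0.33 and -0.81 ± 0.36. That is 2 of 38 genes, where 5.88% of all probe sets tested had such a p. Without cold sfr3 replicate 1 the median was 0.0096, and the rise was larger in wild type in 17 genes and in sfr3 in 21. Without cold sfr3 replicate 2, 1 gene was called higher and 13 lower, where 13.0% and 14.8% of probe sets were. The interval of the interaction lay within 2-fold for 16 of the 38 genes and reached past 2-fold for the other 22.

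**Figure D5:**
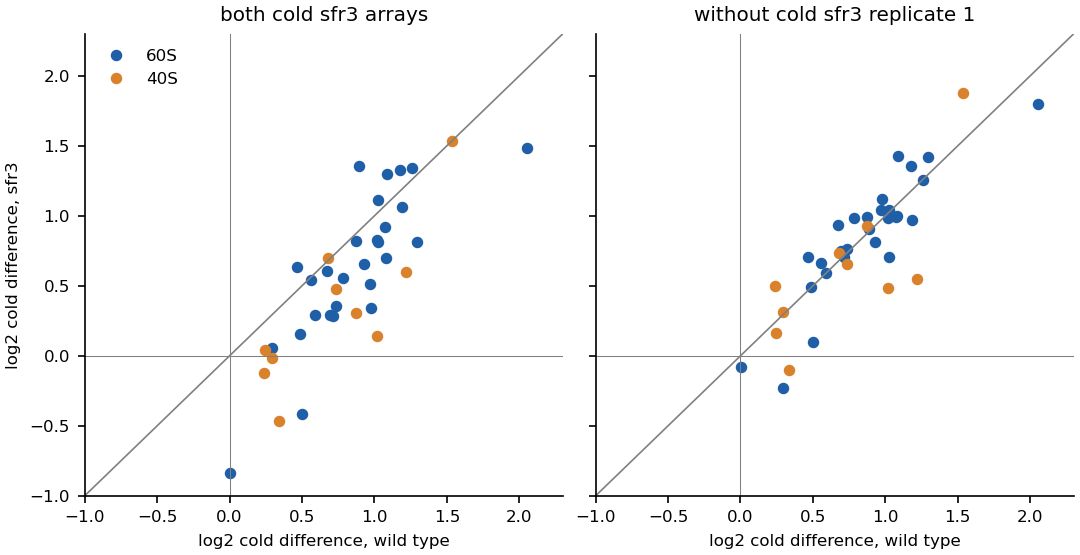
Log2 difference between cold and warm in sfr3 (vertical) against that in wild type (horizontal) for the 38 genes, with both cold sfr3 arrays (left) and without cold sfr3 replicate 1 (right). The diagonal marks equal differences: 31 genes lie below it on the left, and 17 on the right.

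The 8 shared probe sets, which cover 10 further listed loci together with near-identical copies, moved in the same direction. All 8 differences between cold and warm were positive in both genotypes, with medians of 0.78 in wild type and 0.41 in sfr3. The number called was 4 in wild type, 2 in sfr3 and 5 in the average over genotypes. The share of all probe sets called higher was 13.0%, 14.9% and 21.0%. Without cold sfr3 replicate 1 the median in sfr3 was 0.76, and 7 of the 8 differences were then positive. The largest averaged difference was that of the probe set for AT1G41880 (RPL35a family), at 826 and 935 in warm and 2006 and 1995 in cold wild type, and 901 and 843 in warm and 1797 and 2168 in cold sfr3. Its averaged difference was 1.18, with an adjusted p of 9.87e-05. The values cannot be given to 1 of the genes that share a probe set.

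The remaining cytosolic ribosomal protein genes, a list of 147 loci of which 77 were tested, gave 45 called higher and 1 lower in cold wild type, with a median of 0.81. In sfr3 the counts were 30 and 2 with a median of 0.61, and neither genotype comparison called any. Over all probe sets tested, 13.0% were called higher and 13.3% lower in wild type, and 14.9% and 16.4% in sfr3. The sfr3 median of the list was 0.77 when cold sfr3 replicate 1 was left out. AT5G61170 gave 507 and 554 in warm and 1585 and 1762 in cold wild type, and 649 and 528 in warm and 1652 and 1645 in cold sfr3. Its wild-type difference was 1.65 ± 0.18, with an adjusted p of 0.000257. AT2G40010 was also called in wild type, but 1 of its warm values, 3.51, lay under the control background of its array, so that no size is given for its rise. AT3G13580 fell in both genotypes together, by an average of -1.61 ± 0.15 with an adjusted p of 4.95e-05. Of 25 ribosome biogenesis factors, which assemble the subunits in the nucleolus, 10 were tested. In wild type 4 rose and 0 fell, with a median of 0.90, among them AT1G52930 at 1.82 ± 0.31 and AT3G05060 at 1.28 ± 0.22. AT3G15460 was called in both genotypes, but its warm signals of 11.7 to 24.4 lay under 26.7, the lowest mean signal tested. It entered the test only through its cold signals, so that no size is given for its rise. In sfr3 2 rose, AT3G15460 and AT3G05060, the latter by 0.75, with a list median of 0.21. That is 2 of 10 genes, where 14.9% of all probe sets tested were called higher. With cold sfr3 replicate 1 left out, the list median in sfr3 was 0.79.

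Of 31 nuclear genes for plastid ribosomal proteins, 7 were tested. In wild type 3 rose with a list median of 0.67, and in sfr3 1 rose with a list median of -0.03. Over all probe sets tested, 13.0% were called higher in wild type and 14.9% in sfr3. Without cold sfr3 replicate 1 the list median in sfr3 was 0.40. AT3G13120 rose in both, by 0.93 ± 0.18 and 1.11 ± 0.18. Of 30 translation factors only 3 were tested. EIF4A-2, a helicase that unwinds the start of the message, rose by 0.67 ± 0.16 in wild type and 1.03 ± 0.16 in sfr3. AT2G40290 rose by 1.05 ± 0.20 in wild type. Of 10 genes of the TOR pathway, the growth-control kinase pathway on which ribosome synthesis depends, only RAPTOR1 was tested. It fell by 1.06 ± 0.27 in wild type and by 1.13 ± 0.27 in sfr3, with adjusted p of 0.0185 and 0.0131. Its sfr3 difference was -0.75 without cold sfr3 replicate 1, still called. No gene of these lists was called in the genotype comparisons or the interaction.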

How the data were processed

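The deposited intensities are linear MAS5 signals. The submitters' processing notes name MAS5 and GCOS and give no versions; further steps are not given in the sources used. The 2% trimmed mean of each array was 100, as checked on the values. Of 22810 probe sets, 64 controls were left out. Tests used log2(signal + 2.17), the pseudocount being the 10th percentile of the values, so that changes of dim genes are understated. Tested were the brightest 60% of probe sets by mean signal. Probe sets were paired with genes through the platform annotation and TAIR10.1 locus tags.

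One limma model (version 3.58.1, R 4.3.3) with 4 group means took in the 8 arrays, and variances were moderated along an intensity trend (4 residual and 5.17 prior degrees of freedom). Two-sided p-values received Benjamini-Hochberg adjustment over 13648 probe sets, and "called" means an adjusted p under 0.05. The labels do not say that replicates were separate plants or pools, so the p-values speak only of the variation among these samples, and that may be technical. The number of arrays limits the precision.

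Signals are given on every array of a comparison for the members it named by rule, and other genes are described by differences or by some of their signals. Named were, per comparison, up to 5 called genes with the largest rise or fall and the genes of families of which 1 was called and the other not. From other lists up to 3 called genes by size were named. Members and lists were chosen with earlier results of these data known. An array's background was set at the 95th percentile over 27 probe sets for bacterial controls, and 18 probe sets served as hybridisation controls. The model was tested on simulated data. Alternatives were the pseudocount, the filter, the scaling, the samples in the model, array weights, the trend, a minimum fold, a replicate block and leaving out each array; centring each array together with leaving out cold sfr3 replicate 1 was added after seeing the data. Replicate numbers were shared between groups without pairing them (correlations of replicate differences from -0.0867 to 0.0525).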

Additional observations from a re-analysis of the deposited data

How the results depend on the processing

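The median cold difference of the 38 genes was positive under every setting in wild type, sfr3 and their average. Not all settings could move it. The filter, the groups in the model, the replicate block, array weights, the trend and the minimum fold left it unchanged. Leaving out an array of 1 genotype cannot change the difference in the other. The number called moved. In wild type (19 as reported) it was 11 with each array centred on its median, 32 with only the compared groups in the model, 32 with array weights, 32 with centring and cold sfr3 replicate 1 left out, and 6 to 31 on leaving out 1 array. The share of all probe sets called higher (13.0% as reported) moved with it, to 9.77%, 23.5%, 23.8%, 24.2% and 4.63% to 22.2%. In sfr3 (16 as reported) it was 8, 8, 7 and 28 under the same settings, and 7 to 28 on leaving out 1 array, with 10 and 7 for warm replicates 1 and 2. The share (14.9% as reported) was 7.64%, 5.82%, 6.44%, 17.8% and 6.81% to 29.7%. In the average (25 as reported) it was 16 with centring, 29 with quantile scaling and 29 with array weights. The share of all probe sets called higher (21.0% as reported) was 15.7%, 20.6% and 20.1%. Leaving out 1 array gave 0 to 17 calls for the genotypes in the cold and 0 to 14 for the interaction. The highest of these came without cold sfr3 replicate 2, which leaves 1 array in that group. In both comparisons the share of all probe sets called was also highest there, as given above with the genotype results. The high counts are therefore not shown to be particular to these genes. The cause of these shifts was not tested.

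Some directions reversed. The genotype median in the warm ranged from -0.00026 to 0.21 on leaving out 1 array, that in the cold from -0.43 to 0.12, and the interaction from -0.51 to 0.0096. With centring and without cold sfr3 replicate 1 the genotype median in the cold was 0.0895. In sfr3, leaving out 1 array gave AT3G09500 -0.015 to 0.59, AT2G44120 -0.057 to 0.76 and AT1G15930 -0.22 to 0.31. AT1G15930 was also -0.20 with centring and -0.059 with quantile scaling. The averaged difference of AT3G02560 ranged from -0.25 to 0.12 on leaving out 1 array (0.002 without warm sfr3 replicate 1), and was 0.14 with centring and without cold sfr3 replicate 1. Of the other-setting values of named genes, 573 kept direction and side of the threshold, 29 gained a call, 42 lost one and 9 reversed.

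Centring moved the median of all probe sets in cold sfr3 from 0.06 to -0.19, and the calls from 2028 higher and 2233 lower to 1043 and 2331. The median of the 38 genes relative to it was 0.521 with and without centring. Centring subtracts 1 value from all probe sets of an array, so that this agreement was fixed in advance. With the replicate number as a block, 19, 16 and 27 of the 38 genes were called in wild type, sfr3 and their average, and 0 in the genotype comparisons and the interaction. The share of all probe sets called higher was 12.3%, 14.0% and 20.3% in wild type, sfr3 and their average. The numbers do not pair the samples, and the block changed no count by over 1.5 times. Genes near the array's background, of which AT1G15250 is the dimmest, are measured least firmly.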
